A study of Mus musculus with 6 samples.

Results

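Interferon-stimulated genes are genes whose transcription is switched on by interferons. Some are also switched on by signals from sensors of viral or bacterial nucleic acids. The 41 genes described here were chosen by name, and all 41 were present among the 46963 gene names of the count table. All 41 also passed the filter on low counts, at least 10 counts in at least 2 libraries, which kept 14600 genes for testing.

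Type I interferons (interferon α and β) bind a receptor made of Ifnar1 and Ifnar2, and the kinases on that receptor activate Stat2, which enters the nucleus with Irf9 to bind a DNA element with repeated GAAA. Interferon γ acts through another receptor, and many of its target genes hold a palindrome that begins with TTC and ends with GAA. The genes switched on in this way encode sensors of foreign RNA and DNA, enzymes that degrade RNA or stop translation, proteins that attack virus particles or intracellular bacteria, and the transcription factors that keep the response going. In B-cells, lipopolysaccharide (LPS, from the outer membrane of bacteria) is detected by the Toll-like receptor Tlr4, which drives division, antibody class switching and plasma cell differentiation.

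RNA was sequenced from CD43-depleted splenic B-cells, in which removal of CD43+ cells leaves mostly resting mature B-cells, of wt mice, of mice lacking the Eμ enhancer at the 5′ end of the immunoglobulin heavy chain (IgH) constant locus with its flanking matrix attachment regions, and of mice lacking the 3′ regulatory region (3′RR) of the same locus. The mice were males and females of 8 to 12 weeks on a 129 background, and both deletions were in the germ line and thus in all cells. Each genotype had 1 resting library (NS) and 1 library after 48 h with 5 μg per ml LPS (S), so that there were 6 libraries, each a pool of cells from 2 mice by the labels, while the methods of the study give 4 mice and 2 pools per genotype. The labels describe the resting cells as kept 2 days in medium without LPS, whereas the methods describe them as taken before stimulation, and a protocol text gives the LPS dose in mg instead of μg.

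Library depth over genes ran from 9111974 to 21998587 counts, and levels are given as CPM, the counts of a gene per 1000000 counts after scaling of library sizes with TMM. CPM was not divided by gene length, so that levels were compared between libraries and not between genes. With 1 library per genotype and culture state no test between genotypes within a state was possible, and such pairs are given as log2 ratios with a 95% interval (Clopper-Pearson) that covers counting error only, beside the shares of all tested genes that passed the same fold. The tests were edgeR's quasi-likelihood tests of an additive model with genotype and culture state over the 6 libraries, with Benjamini-Hochberg adjustment over the 14600 genes. Their p-values rest on how far single libraries depart from additive terms, so that they say nothing of the variation among mice. Since reads with several map positions were counted, members with close copies (Ifit1 to Ifit3, the Oas and Gbp genes, Trim30a) may hold reads of those copies.

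The promoter sequences show what many of these genes share apart from their names. RefSeq promoter windows of the GRCm38.p6 build, from 250 bases before to 50 bases after a transcription start, were found for 33 of the 41 genes. The core of the interferon-stimulated response element, read as GAAA, any 2 bases and GAAA again, searched on both strands and with overlapping matches allowed, stood in a window of 16 of these 33 genes (48.5%), against 3.99% of all 27025 genes with a window (3.44% of the 32851 windows). The palindrome of the interferon γ response, TTCNNNGAA, searched in the same way, was found in windows of 10 of the 33 (30.3%), against 9.55% of all genes. Oas1a, Bst2, Eif2ak2 and Igtp held both motifs, which shared bases in Bst2. The 4 stretches that follow belong to the genes with the largest changes after LPS, in either direction, that held a match before the start. They are written 5′ to 3′ on the strand of the gene, with capitals marking the bases that match that core, which reads TTTC, any 2 bases and TTTC where the match is on the other strand.
Ifit1, chr19:34640765-34640833, plus strand: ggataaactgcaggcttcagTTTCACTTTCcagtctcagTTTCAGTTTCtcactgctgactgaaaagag
Isg15, chr4:156200855-156200916, minus strand: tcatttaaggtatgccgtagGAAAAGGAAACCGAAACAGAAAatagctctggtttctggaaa
Rsad2, chr12:26456543-26456592, minus strand: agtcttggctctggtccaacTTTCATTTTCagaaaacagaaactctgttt
Gbp2, chr3:142620584-142620633, plus strand: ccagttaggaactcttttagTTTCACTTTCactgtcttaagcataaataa
The promoter of Ifit1 held a pair of separate matches, that of Isg15 held 3 overlapping matches in 1 run, and those of Rsad2 and Gbp2 held 1 each. All of them ended between 111 and 50 bases before the start. Rsad2, whose level fell after LPS, thus carried a match to the same core as Ifit1, Isg15 and Gbp2, whose levels rose.

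Across the 6 libraries, the LPS-stimulated Eμ-deficient library stood out. It held the highest level of 35 of the 41 genes (85.4%), whereas it was the highest library for 10.4% of all tested genes. The LPS-stimulated wt library was the lowest of the 6 for 20 genes (48.8%), against 23.3% of all tested genes, and the resting Eμ-deficient library was the lowest for 12, against 18.7% of all. The summed level of the 41 genes was 1274, 943 and 1321 CPM in the resting wt, Eμ-deficient and 3′RR-deficient libraries, and 974, 2743 and 1401 CPM after LPS in the same order. The 5 libraries other than the LPS-stimulated Eμ-deficient library thus lay between 943 and 1401 CPM. The median level of the 41 genes was 15.3, 14.8 and 13.4 CPM at rest and 16.7, 63.0 and 29.6 CPM after LPS. The values in libraries follow this order, wt, Eμ-deficient and 3′RR-deficient, throughout.

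**Figure D1:**
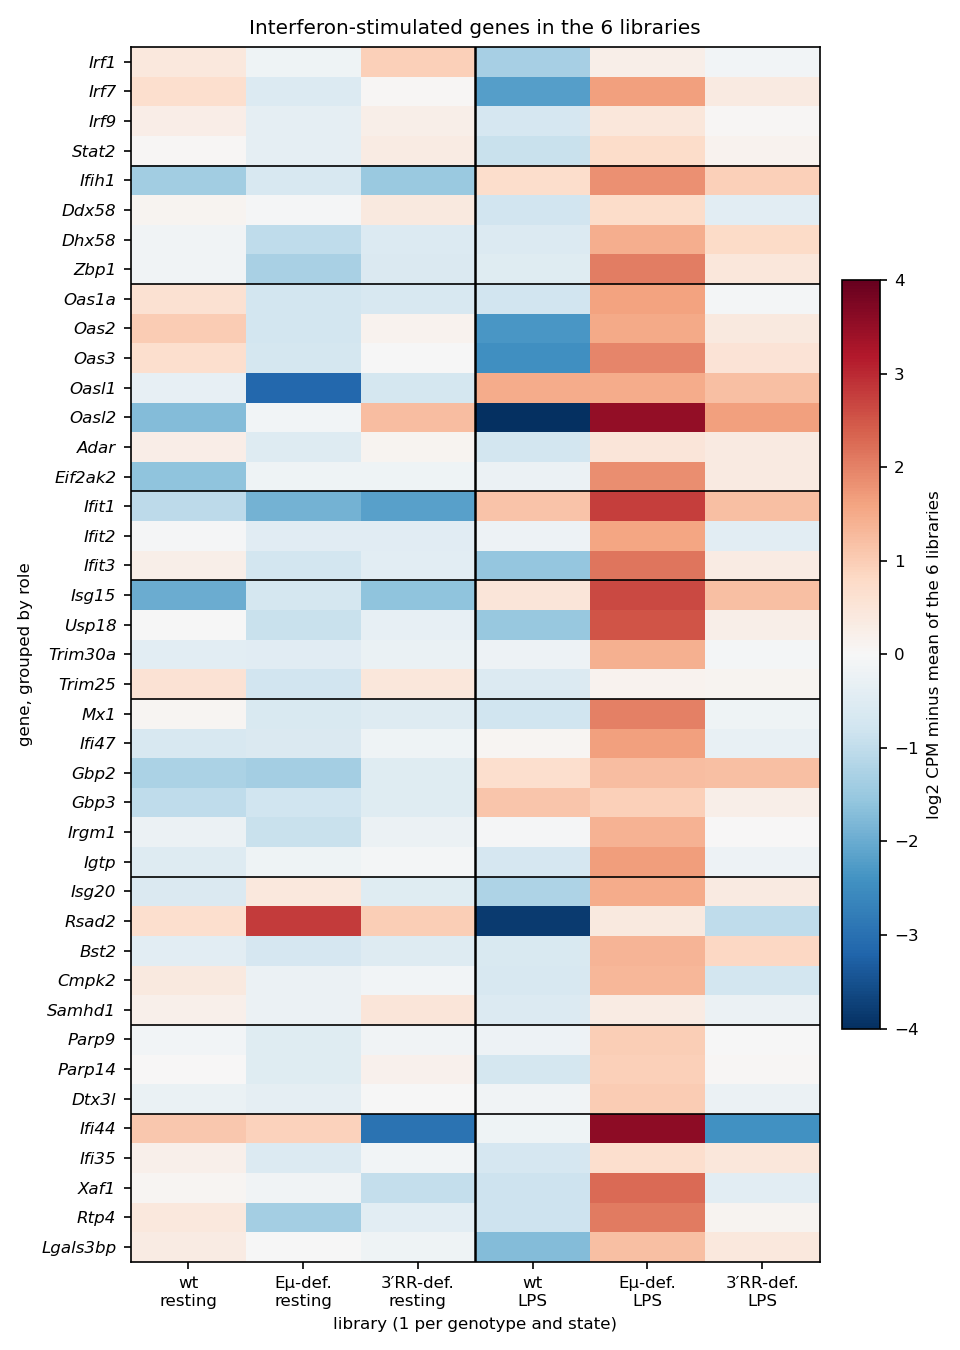
Level of the 41 genes (rows, grouped by role) in the 6 libraries (columns), as log2 CPM minus the mean of that gene over the 6 libraries, with red above and blue below the mean and colours that saturate at a difference of 4. The LPS-stimulated Eμ-deficient column is red in nearly all rows and the highest of the row for 35 of the 41 genes, and the LPS-stimulated wt column is the lowest for 20.

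Over the 3 genotypes, LPS changed 8 of the 41 genes. In edgeR's quasi-likelihood test 7 genes (17.1%) were higher and 1 (2.44%) was lower in LPS-stimulated libraries, against 19.7% and 21.1% of all tested genes. The share of members called higher was thus close to that of all genes, and that of members called lower was under it. The 7 genes that rose encode a ubiquitin-like modifier (Isg15), a tetratricopeptide protein that binds foreign RNA (Ifit1), an oligoadenylate synthetase-like protein (Oasl1), the cytoplasmic RNA sensor MDA5 (Ifih1), the guanylate-binding proteins Gbp2 and Gbp3, and the kinase PKR, which stops translation when it meets double-stranded RNA (Eif2ak2). The gene that fell was Rsad2, which encodes viperin, an enzyme that makes a chain-terminating nucleotide. The median log2 fold change of the 41 genes was 0.61, against -0.07 for all tested genes. The count depended on the wt libraries, since without them 31 members were called higher. It also changed without the LPS-stimulated Eμ-deficient library. No share of all tested genes in the fit without wt stands beside the 31, which is therefore not read as particular to these genes.

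The level of Isg15 (chromosome 4, 156199424 to 156200818, minus strand, GRCm38) was 3.25, 7.96 and 4.18 CPM in the resting libraries and 17.9, 80.2 and 29.6 CPM after LPS. The groups did not overlap, and the log2 fold change was 2.88 (SE 0.27, adjusted p = 0.000131). Ifit1 (chromosome 19, 34640871 to 34650009, plus strand) measured 2.42, 1.36 and 1.12 CPM at rest and 11.2, 34.5 and 11.7 CPM with LPS. It had the largest rise of the 41 genes, with a log2 fold change of 3.36 (SE 0.45, adjusted p = 0.000643), and the stimulated Eμ-deficient library stood above the other stimulated libraries, which were level with each other. For Ifih1 (chromosome 2, 62595798 to 62646255, minus strand) the resting levels were 6.72, 11.4 and 6.28 CPM and the stimulated levels 28.6, 63.02 and 34.3 CPM. The stimulated library was 4.25-fold, 5.55-fold and 5.46-fold the resting level in the 3 genotypes, and the log2 fold change was 2.34 (SE 0.24, adjusted p = 0.00018). Oasl1 (chromosome 5, 114923240 to 114937915, plus strand) stood at 20.2, 2.88 and 15.6 CPM at rest and at 70.6, 70.2 and 58.7 CPM after LPS. Here the Eμ-deficient library was the lowest at rest and level with wt after LPS, and the log2 fold change was 2.64 (SE 0.50, adjusted p = 0.0034).

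The guanylate-binding proteins are large GTPases that assemble on the vacuoles of intracellular pathogens. Gbp2 (chromosome 3, 142620602 to 142638008, plus strand) was at 7.55, 7.05 and 12.8 CPM in resting and 28.8, 42.4 and 41.4 CPM in stimulated libraries, a log2 fold change of 2.06 (SE 0.26, adjusted p = 0.000475). Gbp3 (chromosome 3, 142560026 to 142573209, plus strand) was at 18.2, 21.1 and 26.2 CPM and at 79.7, 70.4 and 42.9 CPM, a log2 fold change of 1.53 (SE 0.30, adjusted p = 0.004). As for Oasl1, the stimulated Eμ-deficient library did not stand apart for these genes, and for Gbp3 it lay below wt. Eif2ak2 (chromosome 17, 78852564 to 78882573, minus strand) measured 9.86, 26.6 and 26.6 CPM at rest and 25.7, 110.3 and 38.4 CPM after LPS. Its resting wt library was the lowest of the 6, the stimulated wt library was no higher than the resting libraries of both mutants, and the log2 fold change of 1.32 (SE 0.31, adjusted p = 0.0086) was the smallest of those called. The call for Eif2ak2 was lost without the genotype block (adjusted p = 0.0885), without the Eμ-deficient libraries (adjusted p = 0.0551) and without the LPS-stimulated Eμ-deficient library (adjusted p = 0.0808), within a range of 1.08e-05 to 0.0885 over all alternatives.

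Rsad2 (chromosome 12, 26442746 to 26456452, minus strand) went the other way. Its level was 12.01, 51.9 and 14.99 CPM at rest and 0.526, 9.94 and 3.71 CPM after LPS. Each stimulated library was below the resting library of its genotype, with log2 ratios of -4.51 (-5.54 to -3.64) in wt, -2.38 (-2.69 to -2.09) in Eμ-deficient and -2.01 (-2.58 to -1.49) in 3′RR-deficient cells, and the log2 fold change was -2.81 (SE 0.43, adjusted p = 0.00123). It was the lone member lower after LPS in Eμ-deficient cells. Cmpk2, a mitochondrial nucleotide kinase whose gene lies next to Rsad2 in the genome, differed from it in the Eμ-deficient cells, where its log2 ratio of LPS to rest was 1.58 (1.15 to 2.03), and measured 7.22, 4.70 and 5.21 CPM at rest and 3.54, 14.1 and 3.37 CPM after LPS. Cmpk2 and the other 32 members were not called. Cmpk2 was picked after its values were seen.

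**Figure D2:**
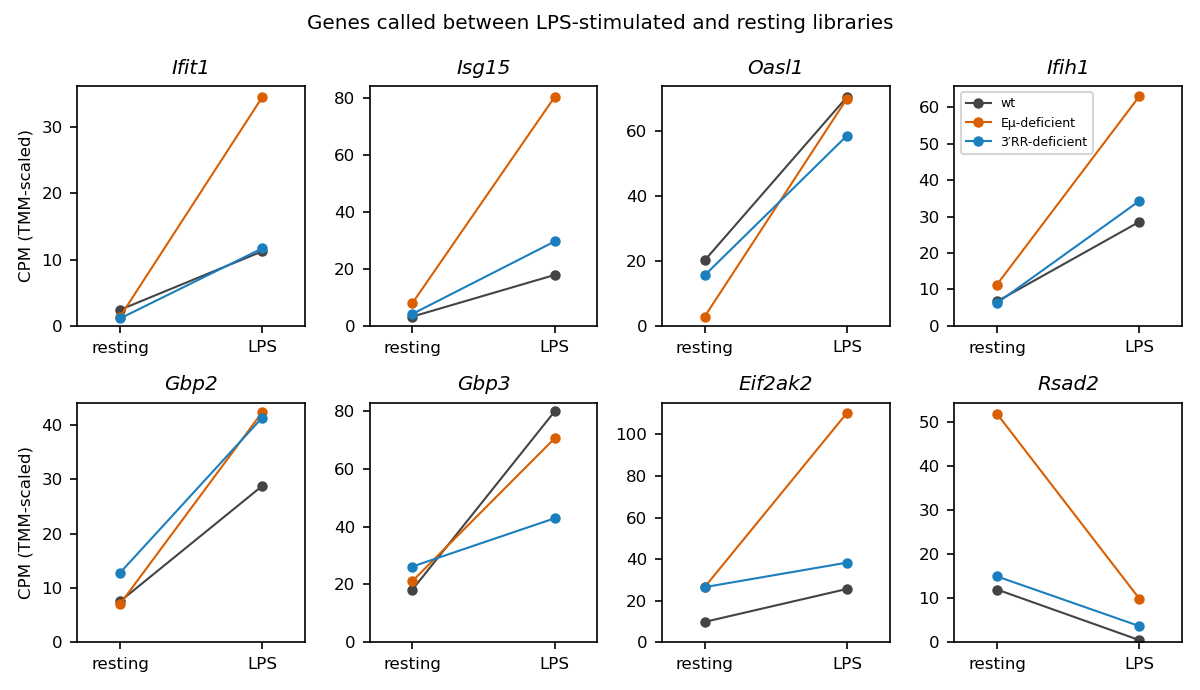
CPM of the 8 genes called between LPS-stimulated and resting libraries, with 1 point per library, a line joining the resting and LPS-stimulated library of a genotype, and a linear axis from 0 for each gene. Ifit1, Isg15, Ifih1 and Eif2ak2 were highest in the stimulated Eμ-deficient library, Gbp3 was highest in stimulated wt cells, and Rsad2 was lower after LPS in each genotype.

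Within genotypes the response to LPS differed in direction for many genes. In wt cells 30 of the 41 genes were lower after LPS, the median log2 ratio was -0.87 (all tested genes, -0.08), and 14 genes were at least 2-fold lower and 7 at least 2-fold higher, against 25.4% and 21.4% of all tested genes. In Eμ-deficient cells 40 genes were higher after LPS, the median was 2.05 (all genes, -0.01), and 34 were at least 2-fold higher and 1 at least 2-fold lower, against 17.1% and 20.1% of all genes. In 3′RR-deficient cells 29 genes were higher, the median was 0.41 (all genes, -0.10), and 8 were at least 2-fold higher and 2 at least 2-fold lower, against 18.0% and 21.2% of all. Spike-in RNAs, added from outside the cells, served as a measure of technical error. Around their median, which was 0.22 in the wt pair, they ranged from -0.69 to 2.28 there, with 1 member above that range and 23 below. In the Eμ-deficient pair the range was -0.24 to 0.29, with 40 members above and 1 below. In the 3′RR-deficient pair it was -1.52 to 1.01, with 8 above and 1 below. Scaling by total counts shifted all LPS ratios of wt by -0.25 and turned the sign of 3 members there, and it turned 1 in 3′RR-deficient cells and none in Eμ-deficient cells. The log2 ratio was higher in Eμ-deficient than in wt cells for 40 of the 41 genes, with Gbp3 as the exception, and the median difference was 2.16. For 25 genes the ratios lay on opposite sides of 0 beyond both counting intervals. The log2 ratio was higher in 3′RR-deficient than in wt cells for 35 genes, with a median difference of 0.77, and 12 lay on opposite sides of 0. These differences have no replicates and were not tested, and both use the same wt libraries. No share of all tested genes stands beside the counts of 40, 25, 35 and 12, which are therefore not read as particular to these genes.

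**Figure D3:**
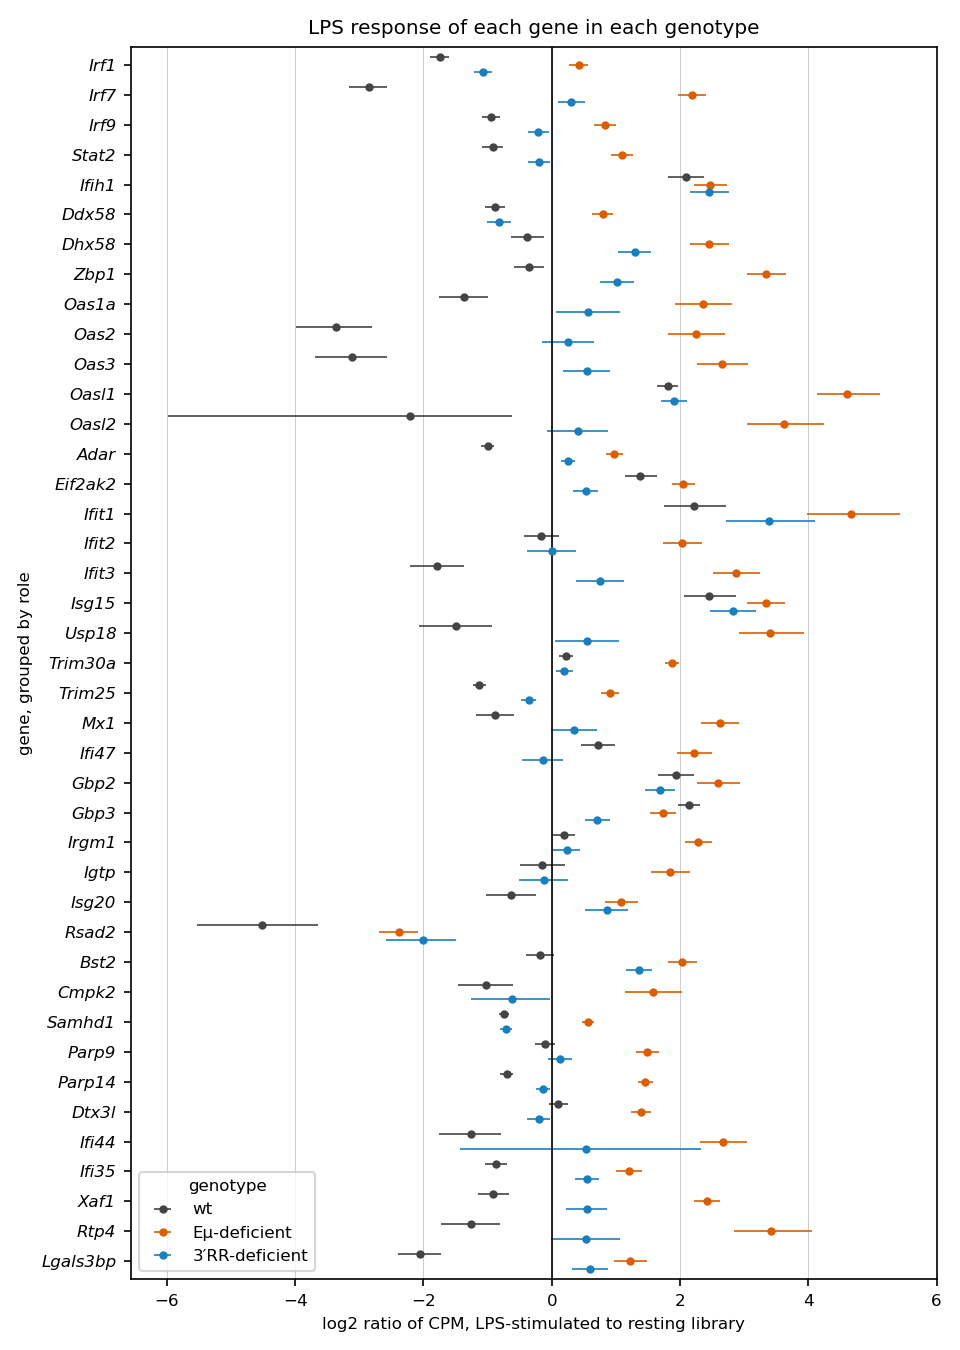
Log2 ratio of CPM of the LPS-stimulated to the resting library for the 41 genes, with a point for each genotype and a bar for the 95% counting interval. The Eμ-deficient points lie to the right of 0 for 40 of the 41 genes and the wt points to the left for 30, with the 3′RR-deficient points mostly between them.

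Among the transcription factors and signal transducers (Irf1, Irf7, Irf9 and Stat2) the stimulated wt library was the lowest of the 6 for all 4 genes, and none was called for LPS. Irf1, which is induced by interferon γ and activates many of the other genes, measured 84.8, 55.6 and 122 CPM at rest and 25.3, 74.5 and 57.8 CPM after LPS. Its log2 ratio of LPS to rest was -1.74 (-1.89 to -1.60) in wt, 0.42 (0.27 to 0.57) in Eμ-deficient and -1.08 (-1.22 to -0.94) in 3′RR-deficient cells, so that it was below the resting level in wt and 3′RR-deficient cells and slightly above it in Eμ-deficient cells. Irf9, the DNA-binding partner of Stat2, measured 57.2, 36.7 and 56.2 CPM at rest and 29.7, 65.4 and 48.6 CPM after LPS. The stimulated wt library was the lowest and the stimulated Eμ-deficient library the highest, and the log2 ratio of LPS to rest was -0.95 (-1.09 to -0.80) in wt and 0.83 (0.66 to 1.004) in Eμ-deficient cells. Irf7, the factor that amplifies interferon α, was outside the rule for naming and was picked after its values were seen, because it had the widest span of the 4. Its level was 38.8, 16.9 and 25.5 CPM at rest and 5.36, 77.1 and 31.5 CPM after LPS, so that the stimulated Eμ-deficient library was 14.4-fold the stimulated wt library. Stat2 had log2 ratios of LPS to rest of -0.92, 1.09 and -0.19.

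The sensors of foreign nucleic acids were Ifih1, described above, Ddx58 (RIG-I, which binds the ends of viral RNA), Dhx58 (LGP2, a partner of both) and Zbp1 (which binds Z-form nucleic acids and can trigger cell death). All 4 were highest in the stimulated Eμ-deficient library. Ddx58 measured 45.6, 40.8 and 56.2 CPM at rest and 24.7, 70.8 and 31.8 CPM after LPS. In wt and in 3′RR-deficient cells it was lower after LPS, with log2 ratios of -0.89 (-1.05 to -0.72) and -0.82 (-1.01 to -0.63), while in Eμ-deficient cells the ratio was 0.79 (0.63 to 0.96). Zbp1 measured 16.97, 7.58 and 12.6 CPM at rest and 13.3, 76.9 and 25.3 CPM after LPS. Its stimulated Eμ-deficient level was 10.2-fold the resting level of that genotype, against 2.02-fold in 3′RR-deficient and 0.781-fold in wt cells. Dhx58 had log2 ratios of LPS to rest of -0.38, 2.46 and 1.30.

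The oligoadenylate synthetases make a short adenylate chain that activates an RNA-degrading enzyme, and Oasl1 is a relative without that activity. Oas1a, Oas2, Oas3, Oasl1 and Oasl2 together with Adar, which deaminates adenosine in double-stranded RNA, and Eif2ak2 made a group of 7, of which 6 were highest in the stimulated Eμ-deficient library and 5 lowest in the stimulated wt library. The log2 ratios of LPS to rest in wt ran from -3.37 to 1.80 (median -1.38), those in Eμ-deficient cells from 0.98 to 4.61 (median 2.35), and those in 3′RR-deficient cells from 0.25 to 1.91 (median 0.53). Adar measured 109, 63.6 and 97.3 CPM at rest and 54.7, 125 and 116 CPM after LPS. The log2 ratios of LPS to rest in wt and in Eμ-deficient cells were of nearly the same size and opposite sign, at -0.999 (-1.10 to -0.89) and 0.98 (0.85 to 1.10), and that of 3′RR-deficient cells was 0.26 (0.15 to 0.37).

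The IFIT proteins bind RNA that lacks the cap modifications of the host. Ifit2 measured 12.4, 9.24 and 9.39 CPM at rest and 11.1, 37.8 and 9.45 CPM after LPS. Of the 6 libraries 5 lay between 9.24 and 12.4 CPM, and the stimulated Eμ-deficient library was 4.09-fold its resting library. Ifit3 measured 11.02, 5.61 and 6.86 CPM at rest and 3.21, 40.9 and 11.6 CPM after LPS. Its log2 ratio of LPS to rest was -1.78 (-2.20 to -1.38) in wt, 2.87 (2.51 to 3.24) in Eμ-deficient and 0.76 (0.37 to 1.13) in 3′RR-deficient cells, the largest difference between Eμ-deficient and wt cells among the members named by the rule.

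Isg15 is conjugated to proteins and is removed again by Usp18, and the TRIM proteins are ubiquitin ligases, of which Trim25 activates RIG-I. Trim30a measured 65.2, 63.9 and 71.7 CPM at rest and 75.9, 234 and 82.3 CPM after LPS. The 5 libraries other than the stimulated Eμ-deficient library lay between 63.9 and 82.3 CPM, and that library was at 3.08-fold the level of stimulated wt cells. Trim25 measured 126, 49.8 and 115 CPM at rest and 57.7, 93.1 and 89.5 CPM after LPS. It was among the 6 members not highest in the stimulated Eμ-deficient library, the resting wt library being the highest, and its log2 ratio of LPS to rest was -1.13 (-1.23 to -1.03) in wt and 0.90 (0.76 to 1.05) in Eμ-deficient cells. Usp18 had log2 ratios of LPS to rest of -1.49 in wt, 3.41 in Eμ-deficient and 0.56 in 3′RR-deficient cells.

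The interferon-inducible GTPases (Mx1, which traps viral nucleoproteins, Gbp2, Gbp3, and the immunity-related GTPases Irgm1, Igtp and Ifi47) were a group whose median was not below 0 in wt cells. Their median log2 ratio of LPS to rest was 0.45 in wt, 2.25 in Eμ-deficient and 0.29 in 3′RR-deficient cells, with 2, 6 and 1 of the 6 genes at least 2-fold higher. Irgm1, which controls the placement of the other immunity-related GTPases, measured 28.2, 17.96 and 28.6 CPM at rest and 32.1, 87.6 and 33.6 CPM after LPS. Its log2 ratio of LPS to rest was 0.19 (0.02 to 0.36) in wt and 0.23 (0.03 to 0.44) in 3′RR-deficient cells, and 2.29 (2.08 to 2.50) in Eμ-deficient cells.

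Of the effectors that act on nucleotides, nucleic acids or particles (Samhd1, Rsad2, Cmpk2, Isg20 and Bst2), Samhd1, which hydrolyses deoxynucleotides, measured 171, 127 and 206 CPM at rest and 102, 188 and 126 CPM after LPS. The resting 3′RR-deficient library was the highest and the stimulated wt library the lowest, a spread of about a factor of 2. Bst2, the tetherin that holds budding virus at the cell surface, measured 19.4, 16.3 and 18.1 CPM at rest and 17.1, 66.6 and 46.5 CPM after LPS. The resting libraries and the stimulated wt library lay between 16.3 and 19.4 CPM, and both mutants were higher after LPS, with log2 ratios to rest of 2.03 (1.81 to 2.26) and 1.36 (1.16 to 1.57). In the test over genotypes Bst2 just missed the threshold, at 1.08 (SE 0.39, adjusted p = 0.0525).

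Parp9, Parp14 and Dtx3l belong to an ADP-ribosylation system in which Parp9 and Dtx3l form a complex. Parp14 measured 96.1, 67.8 and 109 CPM at rest and 59.1, 187 and 99.1 CPM after LPS. Dtx3l, a ubiquitin ligase, measured 39.0, 36.1 and 45.8 CPM at rest and 41.9, 94.8 and 39.8 CPM after LPS. The Eμ-deficient log2 ratios of LPS to rest of the 3 genes lay between 1.395 and 1.49, while those of wt lay between -0.70 and 0.10 and those of 3′RR-deficient cells between -0.20 and 0.13. In the group of Ifi35, Ifi44, Lgals3bp, Rtp4 and Xaf1, the apoptosis-promoting Xaf1 measured 21.1, 18.3 and 10.4 CPM at rest and 11.2, 97.4 and 15.2 CPM after LPS, and Ifi35 measured 36.96, 22.4 and 30.3 CPM and 20.2, 51.5 and 44.4 CPM. All 5 genes were lower after LPS in wt cells (log2 ratios of -2.06 to -0.87) and higher in Eμ-deficient cells (1.20 to 3.42).

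Set against wt cells in the same state, Eμ-deficient cells had lower levels at rest and higher levels after LPS. At rest 32 of the 41 genes were below wt, the median log2 ratio was -0.43 (all tested genes, 0.03), and 8 genes were at least 2-fold lower and 5 at least 2-fold higher, against 5.66% and 12.7% of all tested genes. After LPS 39 genes were above wt, the median was 1.96 (all genes, 0.00), and 36 were at least 2-fold higher and 0 at least 2-fold lower, against 9.45% and 3.52% of all. The members under 2-fold after LPS were Oasl1, Gbp2, Gbp3, Trim25 and Samhd1. The 35 spike-in RNAs with at least 100 counts in every library, added from outside the cells and used here as a measure of technical error, ranged from -1.18 to 0.57 around their median in the stimulated pair, and 38 members lay above that range. In the resting pair they ranged from -0.47 to 1.30 around a median of 0.65, which was removed from the spike-in ratios only. Below that range lay 20 members, and 3 lay above. Scaling by total counts shifted the resting ratios by -0.20 and turned the sign of 1 gene at rest and 1 after LPS.

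The additive model, which has 1 Eμ term for both states, called 2 members higher (4.88%) and 0 lower in Eμ-deficient libraries, against 0.911% and 0.253% of all tested genes. Without adjustment edgeR's quasi-likelihood test gave p under 0.05 for 7 members higher and 0 lower. The shares above are for adjusted p and do not apply to these counts, for which no share of all genes is given. DESeq2 called 4 higher and 0 lower, with its counts over all genes given further on. Isg15 was higher by a log2 fold change of 1.77 (SE 0.32, adjusted p = 0.0371), with log2 ratios of 1.29 (0.82 to 1.78) at rest and 2.17 (1.99 to 2.35) after LPS. Rsad2 was higher by 2.79 (SE 0.52, adjusted p = 0.0393), with log2 ratios of 2.11 (1.89 to 2.34) and 4.24 (3.34 to 5.28). Both genes were thus above wt in each state, unlike most members, and so was Eif2ak2, at 1.43 (1.17 to 1.70) and 2.10 (1.95 to 2.25), which was not called (1.81, SE 0.37, adjusted p = 0.0619). The count was 1 without the LPS-stimulated Eμ-deficient library, where Rsad2 alone remained higher and Oasl1 was called lower, 5 without the LPS-stimulated 3′RR-deficient library, and 0 with scaling by total counts. The adjusted p of Isg15 was 0.539 without the LPS-stimulated Eμ-deficient library and ranged from 0.000155 to 0.539 over alternatives, and that of Rsad2 ranged from 3.80e-10 to 0.0854. The summed markers of myeloid, erythroid and plasma cells were also higher in the Eμ-deficient than in the wt libraries, as given further on, though not every single marker was. The part of these cells in the values above was not tested.

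**Figure D4:**
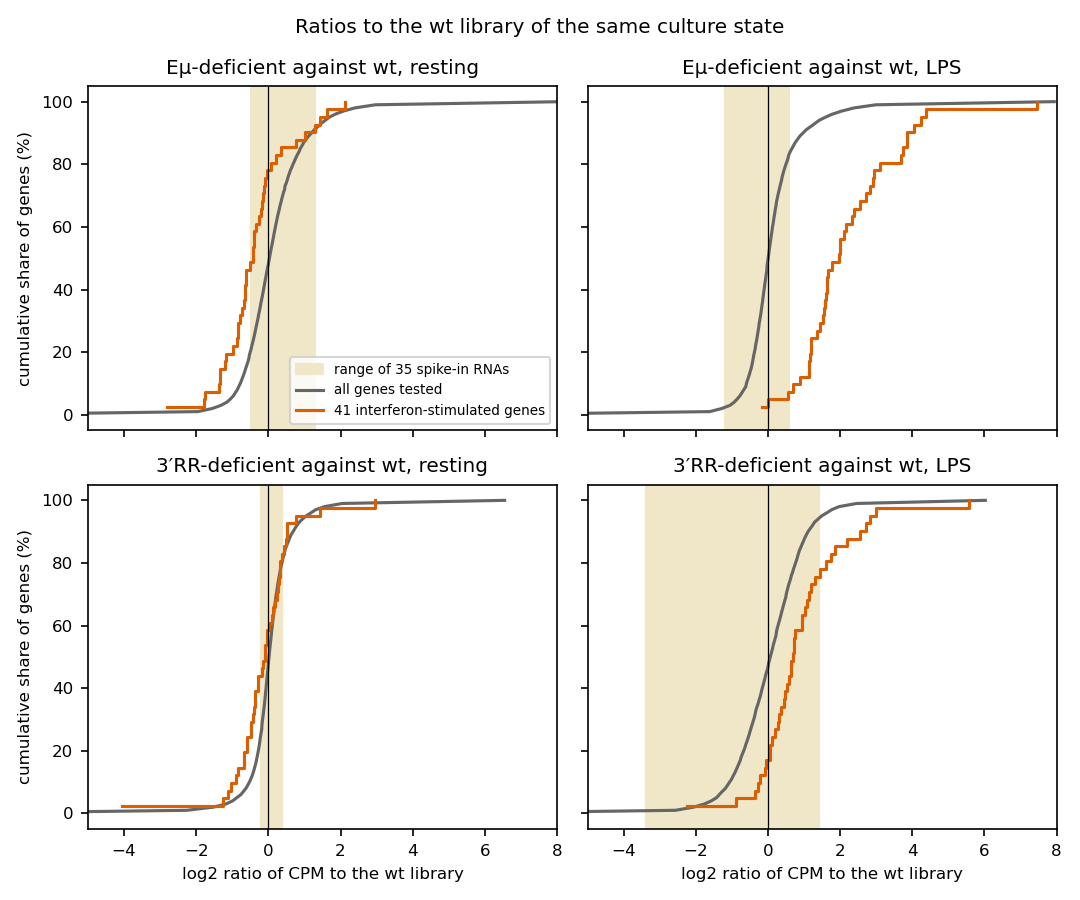
Cumulative share of genes (vertical axis, percent) against the log2 ratio of CPM to the wt library of the same state (horizontal axis), for the 41 genes (orange) and all tested genes (grey), with the range of 35 spike-in RNAs shaded. The orange line lies far to the right of the grey line for Eμ-deficient cells after LPS (median 1.96), less far for 3′RR-deficient cells after LPS (0.69), somewhat to the left for resting Eμ-deficient cells (-0.43) and close to it for resting 3′RR-deficient cells (-0.10).

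The medians of 3′RR-deficient cells lay nearer to wt. At rest their median log2 ratio to wt was -0.10 (all tested genes, 0.02), with 17 genes above and 24 below wt, and 2 genes at least 2-fold higher and 4 at least 2-fold lower, against 5.41% and 3.96% of all genes. Scaling by total counts shifted these ratios by -0.19 and turned the sign of 4 genes. After LPS the median was 0.69 (all genes, 0.06), 34 genes were above wt, and 15 were at least 2-fold higher and 1 at least 2-fold lower, against 12.5% and 11.1% of all. With the trend on GC content removed, 8 were at least 2-fold higher. The 12.5% is for ratios without that removal, and no share of all genes after it is given here. In that pair the spike-in RNAs spread widely, from -3.38 to 1.4 around their median, and 10 members lay above and 0 below their range. The comparisons of the mutants with wt share the wt libraries. Compared directly after LPS, Eμ-deficient cells were above 3′RR-deficient cells for 41 of the 41 genes, with a median log2 ratio of 1.29 (all genes, 0.01), and 26 were at least 2-fold higher and 0 lower, against 11.4% and 7.03% of all genes. The counting interval included 0 for Gbp2, Trim25 and Adar, and 4 members lay above the spike-in range of -0.98 to 2.14. At rest the median of this direct comparison was -0.43 (all genes, -0.01), with 2 genes at least 2-fold higher and 4 lower, against 10.8% and 4.92% of all.

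In the additive model 0 of the 41 genes were called higher and 0 lower in 3′RR-deficient libraries, against 0.171% and 0.507% of all tested genes. Without adjustment edgeR's quasi-likelihood test gave p under 0.05 for 2 members higher and 1 lower. The shares above are for adjusted p and do not apply to these counts. DESeq2 called 0 higher and 1 lower, with its counts over all genes given further on. The genes with the largest coefficients were Oasl2 and Ifi44, which fall outside the rule for naming and were picked after their values were seen. Ifi44 (chromosome 3, 151730922 to 151749960, minus strand), a cytoplasmic protein of the interferon response, measured 6.45, 5.68 and 0.389 CPM at rest and 2.68, 36.01 and 0.562 CPM after LPS. It was low in both 3′RR-deficient libraries, at -4.05 (-5.29 to -3.02) against wt at rest and -2.25 (-3.93 to -0.95) after LPS, and its coefficient was -3.40 (SE 0.93, adjusted p = 0.309). Oasl2 (chromosome 5, 114896936 to 114912234, plus strand) measured 0.661, 2.05 and 5.16 CPM at rest and 0.0957, 25.1 and 6.86 CPM after LPS, the stimulated wt library holding 2 counts. Both mutants were above wt in each state, with log2 ratios for 3′RR-deficient cells of 2.96 (2.10 to 3.96) and 5.58 (4.25 to 9.24), and the coefficient was 3.93 (SE 1.08, adjusted p = 0.309). The adjusted p ranged from 3.03e-09 to 0.611 over alternatives for Ifi44 and from 1.46e-11 to 0.677 for Oasl2, so that both calls depended on the setting. Without the LPS-stimulated Eμ-deficient library both were called, with adjusted p = 0.000436 for Ifi44 and 2.09e-06 for Oasl2, and without the LPS-stimulated 3′RR-deficient library Oasl2 was called, with 0.0148.

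Transcripts of interferons themselves were hardly detected. None of 21 type I and II interferon genes passed the filter, and the highest count of any of them in any library was 6. Ifnb1, the interferon β gene, had 0 counts in all 6 libraries, where 3 counts would be between 0.144 and 0.337 CPM. Ifng, the interferon γ gene, measured 0.22, 0.227 and 0.292 CPM at rest and 0, 0.0938 and 0 CPM after LPS. The receptor genes fell with LPS in 3 of 6 cases and rose in none, where 21.1% of all tested genes were called lower and 19.7% higher. Ifngr1, the ligand-binding chain for interferon γ, measured 56.9, 70.6 and 62.7 CPM at rest and 10.8, 13.04 and 11.5 CPM after LPS, a log2 fold change of -2.43 (SE 0.23, adjusted p = 0.000128). The chains of the type I receptor were Ifnar1, at 109, 86.5 and 72.4 CPM and 52.7, 58.9 and 41.05 CPM (-0.81, SE 0.23, adjusted p = 0.0199), and Ifnar2, at -0.45 (SE 0.25, adjusted p = 0.175). Il10rb, shared by the receptors for interferon λ and interleukin-10, was the third to fall, at -1.24 (SE 0.25, adjusted p = 0.00434). No receptor gene was called between genotypes, and the sums of the 6 genes after LPS were 114, 117 and 105 CPM.

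Of the 5 Janus kinase and Stat genes examined, Jak2, which signals from the interferon γ receptor, fell with LPS (-1.60, SE 0.24, adjusted p = 0.001). No other gene of the 5 was called, and the counts that follow can be set against the same 21.1% lower and 19.7% higher among all tested genes. Of 7 negative regulators 1 fell, the Stat inhibitor Pias1 (-0.98, SE 0.22, adjusted p = 0.00804), and of 5 tested interferon regulatory factors outside the 41 genes 1 fell, Irf5 (-0.77, SE 0.23, adjusted p = 0.0256). Among 14 sensors and adaptors that act ahead of interferon production, the adaptors of Tlr4 and Tlr3 rose, Ticam2 by 1.86 (SE 0.39, adjusted p = 0.00519) and Ticam1 by 0.98 (SE 0.28, adjusted p = 0.0219). The RNA receptor Tlr3 (-3.12, SE 0.42, adjusted p = 0.000658), the DNA receptor Tlr9 (-1.15, SE 0.35, adjusted p = 0.0261) and the signalling ligase Traf6 (-0.66, SE 0.22, adjusted p = 0.0435) fell. None of these genes was called between genotypes.

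A further 54 interferon-stimulated genes outside the 41 were counted in the same way. Like the 41, they were chosen with earlier results of these data known, so that they are no independent check. LPS raised 7 of them and lowered 5 in edgeR's quasi-likelihood test, smaller shares than the 19.7% and 21.1% of all tested genes. The genes that rose were Ifi27l2a, Gbp5, Gbp7, Slfn2, Lgals9 and the immunoproteasome subunits Psmb8 and Psmb9, and those that fell were Ifi205, Ifitm1, Ifitm3, Gbp8 and the Isg15-conjugating enzyme Ube2l6. The stimulated Eμ-deficient library was the highest of the 6 for 32 of the 54, against 10.4% of all tested genes. In that library 33 were at least 2-fold above stimulated wt cells and 1 at least 2-fold below, against 9.45% and 3.52% of all, with a median log2 ratio of 1.24. In 3′RR-deficient cells after LPS 17 were at least 2-fold above wt and 1 below (median 0.63), against 12.5% and 11.1% of all genes. Ifi27l2a, a small hydrophobic protein, measured 98.9, 44.8 and 85.95 CPM at rest and 219, 1003 and 335 CPM after LPS. Between genotypes 1 of the 54 was called (0.171% of all tested genes were called higher in 3′RR-deficient libraries), Trim34a, a TRIM protein, which was higher in both 3′RR-deficient libraries, with 17.5, 16.97 and 62.6 CPM at rest and 16.03, 19.7 and 52.9 CPM after LPS (1.78, SE 0.28, adjusted p = 0.0263).

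Genes of other cell types moved with the genotypes and with culture. B-cell markers were high in all libraries, with sums over 8 genes of 3212, 2764 and 3664 CPM at rest and 2097, 1811 and 2149 CPM after LPS. These sums join genes that moved apart at rest, where Cr2 measured 394, 732 and 398 CPM and Fcer2a 119, 64.3 and 226 CPM. The study cites an earlier report that Eμ-deficient mice lack follicular B-cells. The part of such a difference in the ratios of Eμ-deficient to wt cells was not tested. Markers of monocytes, macrophages and neutrophils summed to 165, 397 and 169 CPM at rest and 25.8, 41.6 and 33.9 CPM after LPS, 8 of the 8 tested genes falling with LPS (21.1% of all tested genes) and Ly6g being at 0 in all libraries. Markers of T-cells summed to 18.1, 36.4 and 25.3 CPM and 1.24, 6.57 and 3.71 CPM. Those of NK cells summed to 13.3, 17.8 and 12.2 CPM and 0.335, 18.8 and 0.9 CPM, with Klrb1c at 0 in all 3 stimulated libraries and the granzyme gene Gzmb giving 14.9 of the 18.8 CPM in stimulated Eμ-deficient cells. The sum of every one of these lists was higher in Eμ-deficient than in wt cells in both states, apart from the B-cell list, whose sum was lower.

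Plasmacytoid dendritic cells are a major source of interferon α. Their marker Siglech measured 5.45, 15.2 and 1.56 CPM at rest and 0.191, 1.59 and 0.113 CPM after LPS. Klk1 was lower in Eμ-deficient than in wt cells at rest, at 4.46, 1.36 and 0.195 CPM, and was at 0 in all stimulated libraries. Pacsin1 measured 12.9, 10.6 and 8.81 CPM at rest. In resting Eμ-deficient cells 4 of the 7 markers were at least 2-fold above wt and 1 below, against 12.7% and 5.66% of all tested genes. The 7 markers summed to 147, 246 and 145 CPM and 174, 248 and 149 CPM, most of it from Tcf4, which B-cells also express. The 6 markers of conventional dendritic cells summed to 68.2, 143 and 79.04 CPM and 30.2, 35.1 and 32.3 CPM. Erythroid genes summed to 3359, 20170 and 3869 CPM at rest and 53.2, 671 and 134 CPM after LPS, and 6 of the 7 were called higher in Eμ-deficient libraries, against 0.911% of all tested genes. The plasma cell gene Jchain measured 113, 1737 and 171 CPM and 96.2, 804 and 200.4 CPM, and the 6 plasma cell genes found summed to 547, 2237 and 592 CPM and 582, 1591 and 893 CPM. The 5 genes of dividing cells all rose with LPS and summed to 92.98, 232 and 159.6 CPM and 1350, 1289 and 1286 CPM. The sum showed no excess in stimulated Eμ-deficient cells, where 1 of the 5 was the highest of the 6 libraries. This was Mki67, at 475, 624 and 594 CPM after LPS, while Top2a, the largest part of the wt sum, measured 601, 455 and 422 CPM. The part of these cell types in the levels of the interferon-stimulated genes was not tested, and in such bulk libraries fewer cells of a type and less RNA per cell cannot be told apart.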

How the data were processed

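The file deposited by the authors holds unnormalized counts by gene name for 6 libraries. They removed ribosomal RNA, prepared stranded libraries, mapped paired reads of 150 nt to mm10 (STAR 2.4.0a by the submitters' processing notes) with Ensembl 77 gene models, and counted fragments with featureCounts (Subread 1.4.6-p1), multi-mapping reads included. The 92 spike-in names (4.75% to 7.10% of counts) entered neither library sizes nor tests.

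Groups follow the sample titles. TMM scaling and an additive quasi-likelihood model of genotype and culture state were computed with edgeR 4.0.16 (R 4.3.3) for the 14600 genes that reached 10 counts in 2 or more libraries, using a Benjamini-Hochberg threshold of 0.05 over all of them. They were tested on counts simulated under that same additive model. Such counts cannot show how the test behaves where the LPS response differs between genotypes. SE is the log2 fold change divided by the square root of F. Intervals of ratios of 2 counts are exact conditional binomial (Clopper-Pearson, 95%, scipy 1.17.1), they leave out any error beyond counting, such as that of amplification, and no ratio was taken where both libraries held 3 counts or fewer. Spike-in ratios were centred on their median, while ratios of genes kept the TMM scaling. The medians removed ran from -0.17 (LPS in Eμ-deficient cells) to 0.65 (resting Eμ-deficient against wt cells). Counts of members outside a spike-in range therefore depend on this offset. Coordinates and GC content come from GENCODE M21 of GRCm38, the same build.

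Values in every library are given for genes called for any of the 3 coefficients and for the 2 genes of each role with the highest mean CPM, and the genes with the largest and smallest fold change after LPS are named. Other genes of the pathway are named where called, beside Ifnar1, Ifnar2, Ifnb1 and Ifng (1 further gene of the rule is not reported here), markers by list and defining gene, and promoters for up to 4 genes. Values of Cmpk2, Irf7, Stat2, Dhx58 and Usp18 were added after they were seen. The 41 genes, their roles, the pathway lists and the marker lists were chosen with earlier results of these data known. Alternatives were the DESeq2 1.42.0 Wald test, other scalings and filters, removal of the GC trend, fits to the genotypes compared, no genotype block, and leaving out each genotype. Leaving out the LPS-stimulated library of each mutant was added after the data were seen.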

Additional observations from a re-analysis of the deposited data

Results flagged for a closer look

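For 11 of the named genes the log2 ratio of LPS to rest lay below 0 in wt and above 0 in Eμ-deficient cells beyond the counting intervals of both. The Eμ-deficient ratio minus the wt ratio was 4.65 for Ifit3, 3.70 for Zbp1, 3.33 for Xaf1, 2.17 for Irf1 and 2.16 for Parp14. It was 2.07 for Ifi35, 2.03 for Trim25, 1.98 for Adar, 1.78 for Irf9, 1.68 for Ddx58 and 1.31 for Samhd1. For 5 of these genes the 3′RR-deficient ratio was also opposite to that of wt, and the difference there was 2.54 for Ifit3, 1.46 for Xaf1, 1.42 for Ifi35, 1.37 for Zbp1 and 1.25 for Adar. With 1 library per genotype and state none of these differences was tested, and all of them share the wt libraries. The counts of 11 and 5 have no share of all tested genes beside them and are not read as particular to these genes.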

How the results depend on the processing

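The LPS test was blocked by genotype, which joins the resting and stimulated library of a genotype, and the labels give no replicate numbers for any other pairing. Scaling by total counts moved the median log2 ratio of the members from -0.87 to -1.12 for LPS in wt, from -0.43 to -0.62 for resting Eμ-deficient against wt cells and from -0.10 to -0.29 for resting 3′RR-deficient against wt cells. With the GC trend removed the median for LPS in wt was -0.67. Each median kept its sign under these scalings, DESeq2 size factors included. Counts of members called depended more on the setting. In 3′RR-deficient libraries 0 higher and 0 lower became 1 and 1 in the fit to the 2 genotypes, 1 and 1 without a filter on low counts, 0 and 1 with DESeq2, and 1 higher and 0 to 1 lower when either stimulated mutant library was left out. In Eμ-deficient libraries 2 higher and 0 lower became 4 higher with DESeq2, 5 higher in the fit to the 2 genotypes, 9 higher and 1 lower without a filter, 0 higher with scaling by total counts, and 1 to 5 higher and 0 to 1 lower when a library was left out. For LPS 7 higher and 1 lower became 14 and 2 without a filter, 0 lower without the genotype block, and 6 to 31 higher and 1 to 4 lower when libraries were left out. The cause was not tested. Counts over all tested genes follow for only part of these settings, so that the member counts are not read as particular to these genes.

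Over all tested genes, 25 higher and 74 lower in 3′RR-deficient libraries became 56 and 122 with DESeq2, 53 and 124 in the fit to the 2 genotypes, 135 and 204 without a filter, and 7 and 24 with at least 10 counts in all 6 libraries. For Eμ-deficient libraries 133 and 37 became 277 and 63, 325 and 68, 484 and 121, and 84 and 12 in the same order. The number of genes tested changed with the filter and with the libraries left out, so that these counts are not shares of the 14600 genes. Without the LPS-stimulated 3′RR-deficient library 38 were higher in 3′RR-deficient libraries, and 348 higher and 73 lower in Eμ-deficient libraries. Without the LPS-stimulated Eμ-deficient library 55 were higher and 133 lower in 3′RR-deficient libraries, 206 higher in Eμ-deficient libraries, and 1907 higher with LPS instead of 2883. Without both Eμ-deficient libraries 1845 were lower with LPS instead of 3079.

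With LPS neither Rsad2 nor Eif2ak2 was called without the genotype block (edgeR's quasi-likelihood test, adjusted p = 0.0745 for Rsad2, range 3.07e-16 to 0.0745, and 0.0885 for Eif2ak2, range 1.08e-05 to 0.0885). Low counts limit Oasl2, Ifi44 and Rsad2 most, with 2 counts of Oasl2 in stimulated wt cells.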
